A study of Mus musculus with 24 samples.

Results

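The comparison described here set NIH3T3 cells given spermidine for 360 min against unstimulated cells of the same line, harvested at 0 min. It rested on 6 arrays, 3 per time, out of 24 in the series, and was read for 19938 genes. NIH3T3 is an immortalised line of mouse embryonic fibroblasts. The cells at 360 min had spent 96 h in 1 mM difluoromethylornithine (DFMO) and then received 10 µM spermidine together with 1 mM aminoguanidine, while the cells at 0 min had spent the same 96 h in 1 mM DFMO and received no spermidine. DFMO thus applies to both groups, and no group of cells without it was used here. The labels do not say whether aminoguanidine was given at 0 min, and no arrays of DFMO alone kept for a further 360 min were analysed here, so spermidine cannot be told apart from the extra 360 min in the dish or from adding fresh agents. The labels call the 3 arrays of each time biological replicates.

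Polyamines (putrescine, spermidine and spermine) are small positively charged molecules that bind nucleic acids and are needed for growth. DFMO irreversibly blocks ornithine decarboxylase, which makes putrescine, and cells kept in it run low on putrescine and spermidine and slow or stop their division. Spermidine from the medium is taken up and can replace what the enzyme no longer supplies, and aminoguanidine keeps the amine oxidases of serum from breaking it down. The question of this time point is what such cells express 360 min after the polyamine returns. Entry into S phase follows a known order. The G1 cyclins D and E with their kinases release E2F factors from the retinoblastoma family, and E2F targets are transcribed. The helicase of minichromosome maintenance (MCM) proteins is loaded at origins and fired.

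The arrays were Affymetrix MoGene 1.0 ST, each with 200 ng of total RNA as starting material, and values are the deposited log2 values. Changes are log2 differences, 360 min minus 0 min, with the standard error (SE) of a limma model, and folds are 2 to the power of these differences. Genes count as called where the Benjamini-Hochberg adjusted p was below 0.05. The median 95% half-width of a change was 0.118, with 3 arrays a time and a spread estimated from all 24 arrays. That median is over all genes tested, of which 11500 had a mean level under 5. Many genes named below had an SE well above the median SE of 0.0567, so their changes are less precise. On the first principal component of all 24 arrays the 360 min arrays lay at 14.1, 15 and 15.3, and the 0 min arrays at -16.3, -16.1 and -14.4. Away from these 6 arrays, replicate 3 of 120 min and replicate 3 of 240 min stood apart from their own times. Replicate 3 of 120 min lay at 2.61, near the other 240 min arrays (2.07 and 1.49). Replicate 3 of 240 min lay at -13.2, near the other 120 min arrays (-12.2 and -12.2). Whether these 2 arrays were exchanged was not tested, and they were kept as labelled. Both enter the pooled estimate of spread, so counts are also given without them. The mean over each replicate number was the same in the deposited values, so a replicate effect had been taken out before deposit, and the p-values are somewhat too small for that. Of the 10 fibroblast markers, such as Col1a1 and Vim, the mean level per array lay between 9.61 and 9.89 at 360 min and between 9.61 and 9.77 at 0 min. Single values of this list ran from 3.86 to 12.82 at 360 min and from 3.94 to 12.69 at 0 min, so not every marker was high. Of this list 1 gene was called, Vim, which was higher at 360 min (adjusted p = 0.0282), and 10 of 15 alternatives ended its call. The mean over each list of 10 macrophage, epithelial, endothelial, adipocyte or skeletal muscle markers lay between 3.82 and 4.36 at 360 min, against 3.81 to 4.41 at 0 min. Single values at 360 min reached 7.96 in the epithelial, 7.48 in the macrophage and 7.31 in the adipocyte list, so not every such marker was low. Of those 50 genes 1 was called. That gene was the keratin Krt14 (0.44 ± 0.13, adjusted p = 0.0239), whose call was lost when replicate 2 (0.078) or 3 (0.0634) of the 360 min arrays, or the third of the 0 min arrays (0.168), was left out.

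Among the genes tested, 1689 rose and 2103 fell at 360 min relative to 0 min. These are 8.47% and 10.5% of them, 19.0% together, the shares over all genes to set beside the counts below. The median change over all genes was 0.00 (8.3e-06). The median change of the called genes was 0.36 among those that rose and -0.35 among those that fell. The falls were more numerous, but the large changes leaned to rises: 86 rises and 55 falls reached 1 on the log2 scale, and 22 rises and 5 falls reached 1.5. All 3 arrays at 360 min lay above all 3 at 0 min for 3127 genes (15.7%) and below them for 3457 (17.3%). Among the called genes this held for 98.2% of the rises and 97.1% of the falls. Calls depended on the level: 3.86% of the 11500 genes with a mean under 5 were called, against 37.7% between 5 and 7, 42.8% between 7 and 9 and 36.9% above 9. Between 5 and 7, 543 of 3295 genes rose and 700 fell. Between 7 and 9 it was 637 and 868 of 3518, and above 9 it was 281 and 319 of 1625. For a list of genes with means above 5, the share over all genes is therefore a low background. The lists below were not matched for level. Without the 2 arrays that stood apart the counts were 1870 higher and 2238 lower.

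**Figure D1:**
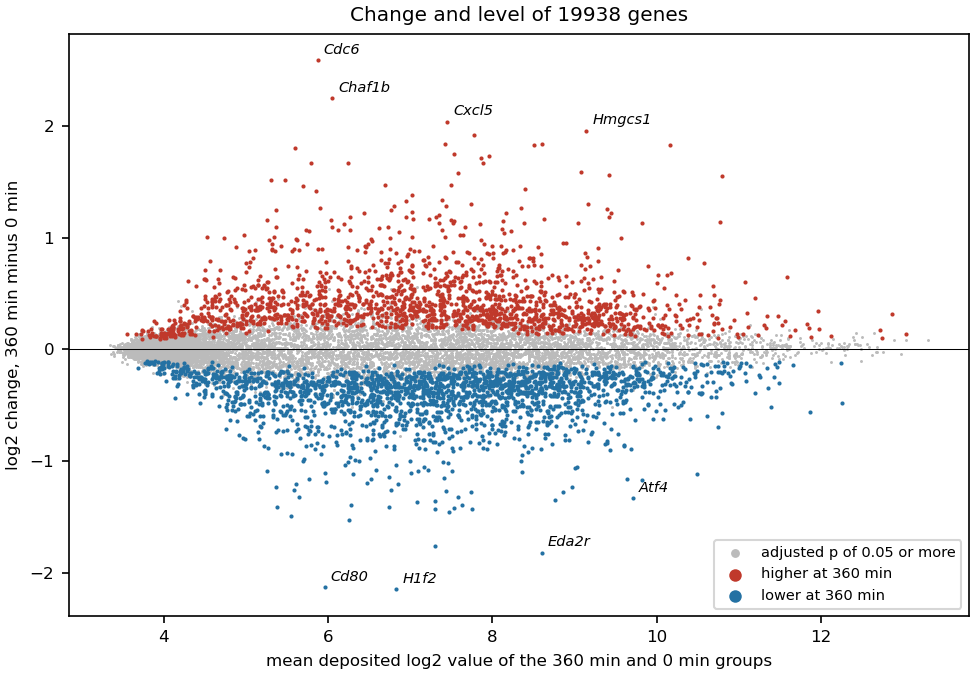
Each point is 1 of 19938 genes. The horizontal axis is its mean log2 value over the 360 min and 0 min groups, and the vertical axis its log2 change, 360 min minus 0 min. Red points are the 1689 genes called higher at 360 min, blue points the 2103 called lower, and grey points those with an adjusted p of 0.05 or more. Cdc6 at 2.59 and H1f2 at -2.15 mark the ends of the range, and few genes with a mean under 5 are coloured.

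Cdc6, Chaf1b, Cxcl5, Hmgcs1 and Dtl rose most, and H1f2, Cd80, Eda2r, Btbd19 and Stk40 fell most. The upstream promoter sequences of Cdc6, Dtl and Hmgcs1 are shown because these genes led the replication and sterol lists and hold the motif of the factor known for each list. The sequences are RefSeq's for GRCm38.p6, 250 bases that end at the base before the transcription start, written 5′ to 3′ on the strand of the gene. Capitals mark the match to an E2F motif (TTTCCCGC, TTTGGCGC, TTTCGCGC or TTTGCCGC) in Cdc6 and Dtl and to a sterol response element (TCACNCCAC) in Hmgcs1, searched on both strands. The windows are chr11:98907901-98908150 (plus strand) for Cdc6, chr1:191575545-191575794 (minus strand) for Dtl and chr13:119690101-119690350 (plus strand) for Hmgcs1.
Cdc6: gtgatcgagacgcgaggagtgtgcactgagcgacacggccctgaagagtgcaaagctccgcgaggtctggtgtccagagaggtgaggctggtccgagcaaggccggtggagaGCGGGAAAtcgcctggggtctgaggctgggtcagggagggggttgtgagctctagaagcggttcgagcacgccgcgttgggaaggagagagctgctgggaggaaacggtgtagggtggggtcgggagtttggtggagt
Dtl: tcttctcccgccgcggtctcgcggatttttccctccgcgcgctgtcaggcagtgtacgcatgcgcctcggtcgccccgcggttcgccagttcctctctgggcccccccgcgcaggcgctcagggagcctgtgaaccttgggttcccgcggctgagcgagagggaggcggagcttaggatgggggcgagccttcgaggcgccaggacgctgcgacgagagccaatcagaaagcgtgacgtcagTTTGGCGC
Hmgcs1: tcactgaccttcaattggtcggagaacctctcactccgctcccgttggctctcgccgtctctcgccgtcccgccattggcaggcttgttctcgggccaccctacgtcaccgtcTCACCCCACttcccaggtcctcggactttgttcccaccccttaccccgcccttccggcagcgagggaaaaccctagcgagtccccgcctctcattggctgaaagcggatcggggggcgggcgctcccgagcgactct
The match begins 138 bases before the start in Cdc6, where it reads on the opposite strand, 8 bases before it in Dtl and 137 bases before it in Hmgcs1. Of the 15614 tested genes with a RefSeq promoter of 300 bases (250 before and 50 after the start), 3.48% held an E2F motif. The share was 8.13% (112 of 1378) among the genes called higher at 360 min and 3.9% (68 of 1744) among those called lower. For the sterol response element the shares were 2.03% (28) among those called higher, 1.09% (19) among those called lower and 1.4% among all genes. A match is a stretch of letters and not a measured binding site.

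Cdc6 recruits the MCM helicase to replication origins. Its level was 7.11, 7.21 and 7.16 at 360 min, against 4.80, 4.42 and 4.51 at 0 min. The 3 arrays at 360 min lay close together and far above all 3 at 0 min, and the change of 2.59 ± 0.30 (adjusted p = 1.02e-05) corresponds to 6.0-fold. Dtl, the substrate receptor of the ubiquitin ligase that removes the licensing factor Cdt1 in S phase, was at 8.81, 8.79 and 8.60 at 360 min and at 6.77, 6.80 and 6.87 at 0 min. The groups did not overlap, and Dtl rose by 1.92 ± 0.27 (adjusted p = 4.58e-05). Of 21 measured genes of origin licensing and firing, 17 rose and 2 fell, with a median change of 0.66. Among the rises were Gins1 (1.42) and Cdc45 (1.27), which join the MCM ring to form the active helicase, and Orc1 (1.10), a subunit of the complex that marks origins. Against them Orc5 (-0.49 ± 0.10, adjusted p = 9.18e-04) and Orc3 (-0.22 ± 0.04, adjusted p = 8.92e-04), other subunits of that same complex, fell. In RNA from whole dishes, more cells in a phase of the cycle and more RNA in each cell cannot be told apart.

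All 7 measured genes of the MCM list rose, from 0.36 for Mcmbp, which encodes a protein that binds the ring, to 1.84 for Mcm6. Mcm6 was at 9.58, 9.46 and 9.55 at 360 min, against 7.55, 7.72 and 7.78 at 0 min, without overlap (change 1.84 ± 0.27, adjusted p = 7.17e-05). Mcm4 (1.27), Mcm7 (1.22), Mcm5 (1.19) and Mcm3 (1.17) moved by similar amounts, with SE between 0.16 and 0.20, and Mcm2 rose by 0.75. An E2F motif was present in 5 of the 6 MCM genes with a promoter, in 7 of 16 licensing genes and in 7 of 24 fork genes. With only the 250 bases upstream these counts were 4, 6 and 2. The motif was in 0 of 9 promoters of deoxynucleotide supply and in 0 of 12 of histone chaperones.

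At the replication fork 25 of 28 measured genes rose and 1 fell (median 0.64). Clspn, the adaptor claspin of the checkpoint kinase Chek1, rose by 1.52 ± 0.17 (adjusted p = 7.78e-06). The flap endonuclease Fen1 (1.34), the replisome scaffold Wdhd1 (1.30), the leading-strand polymerase subunit Pole2 (1.25) and the fork protector Timeless (1.25) rose as well. Pold4, the smallest subunit of polymerase delta, was at 8.72, 8.67 and 8.79 at 360 min and at 9.18, 9.10 and 9.19 at 0 min. All its arrays at 360 min were lower, by 0.43 on average (-0.43 ± 0.05, adjusted p = 1.98e-05), and it was the member that fell. Of 9 genes of deoxynucleotide supply 5 rose and 1 fell (median 0.47): thymidine kinase Tk1 by 1.07, the ribonucleotide reductase subunits Rrm2 by 1.01 and Rrm1 by 0.47, deoxycytidine kinase Dck by 0.90 and Dut by 0.67, while thymidylate kinase Dtymk changed by -0.26 ± 0.06 (adjusted p = 0.00473).

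**Figure D2:**
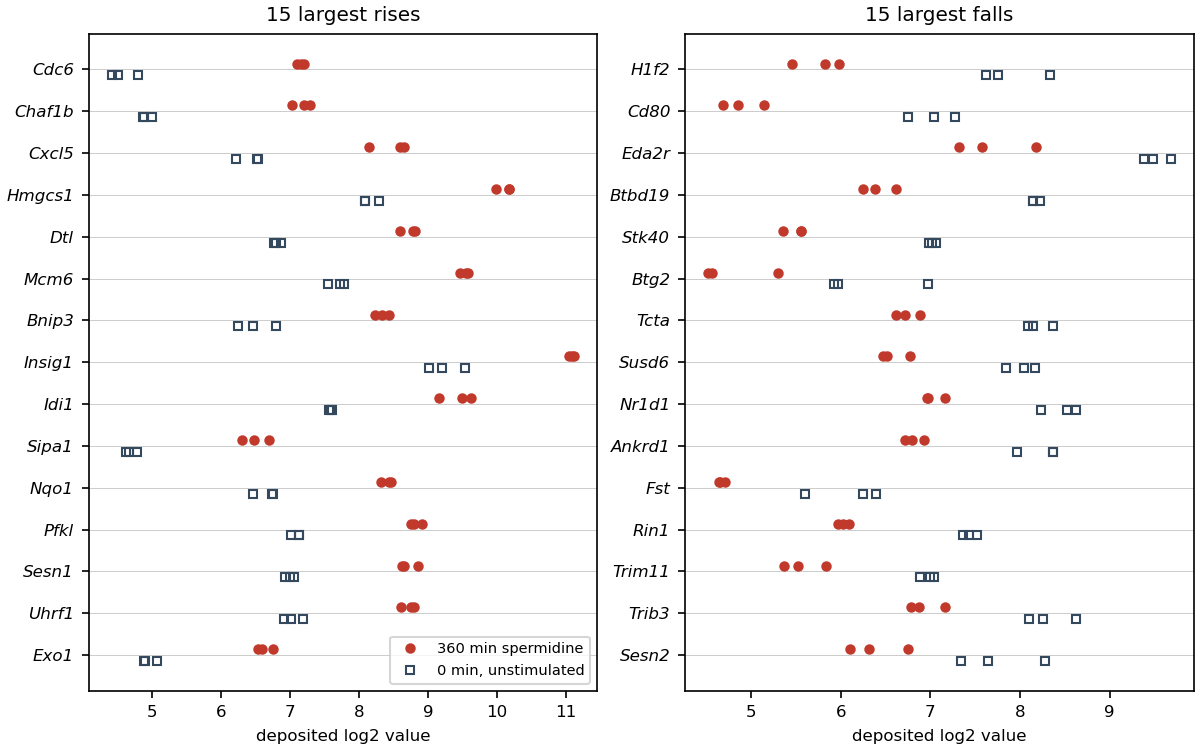
Deposited log2 values (horizontal axis) of the 15 genes with the largest rises (left panel) and the 15 with the largest falls (right panel) at 360 min against 0 min, by the rule for named genes. Filled red circles are the 3 arrays at 360 min and open squares the 3 at 0 min. In none of the 30 genes do the groups overlap, which the rule required. Btg2 and Sesn2 show the widest spread among the falls.

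The cyclins of G1 moved in opposite directions. Ccne1, cyclin E1, was at 6.47, 6.32 and 6.47 at 360 min and at 4.91, 4.98 and 5.00 at 0 min. Ccnd1, cyclin D1, was at 9.67, 9.74 and 9.73 at 360 min and at 10.32, 10.25 and 10.23 at 0 min. Neither gene's groups overlapped: Ccne1 rose by 1.46 ± 0.21 (adjusted p = 5.23e-05) and Ccnd1 changed by -0.55 ± 0.09 (adjusted p = 1.36e-04). In this list of 11 G1 cyclins, kinases and Cdc25a 6 rose and 2 fell (median 0.82). Ccne2 (1.16), the phosphatase gene Cdc25a (1.05), Skp2 (0.92), which targets the inhibitor p27 for destruction, and Cdk2 (0.86), the partner of cyclin E, rose. Cdk6, a partner of cyclin D, fell by 0.31 (-0.31 ± 0.07, adjusted p = 0.0023). Of 6 kinase inhibitors, 1 was called. It was Cdkn1b, which encodes p27, at 7.74, 7.71 and 7.88 at 360 min and at 7.33, 7.02 and 7.18 at 0 min (0.60 ± 0.13, adjusted p = 0.00167).

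In the E2F and retinoblastoma family 7 of 13 genes rose and 1 fell (median 0.32). The rises included the E2F partner Tfdp2 (1.16), the repressor E2f7 (1.00), the pocket protein gene Rbl1 (0.78) and the activator E2f1 (0.69 ± 0.14, adjusted p = 0.0017), and the repressor-class E2f5 fell (-0.39 ± 0.09, adjusted p = 0.00286). Rb1 itself, at 6.81, 6.82 and 7.08 at 360 min and 6.77, 6.85 and 6.64 at 0 min, overlapped between the groups (0.15 ± 0.10, adjusted p = 0.403). Of 29 genes of G2 and mitosis, which are mostly used after S phase, 10 rose and 1 fell, with a median of 0.17. Cdk1 (0.67 ± 0.10), Cdc25b (0.65), the mitotic kinase Aurkb (0.64), Ccna2, cyclin A2 (0.62), and Incenp (0.59) rose. The median of this list was 0.06 without replicate 3 of 360 min and 0.28 without replicate 1 of 0 min. Mki67, a general marker of cycling cells, overlapped between the groups (0.14 ± 0.12, adjusted p = 0.525).

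Histone genes and the genes that handle histones moved in opposite directions. H1f2, a linker histone, was at 5.82, 5.46 and 5.98 at 360 min, against 7.75, 8.33 and 7.62 at 0 min. Its groups were separated by more than 1.5 on the log2 scale, and the change of -2.15 ± 0.27 (adjusted p = 1.69e-05), a 4.43-fold lower level, was the largest fall of all. The core histone H2bc18 was at 4.90, 4.93 and 5.15 at 360 min and at 6.79, 6.25 and 5.87 at 0 min, also without overlap (-1.32 ± 0.16, adjusted p = 1.52e-05). Of 17 measured histone genes 8 fell and 0 rose (median -0.38), among them H1f5 (-0.62), H2bc8 (-0.62) and H1f3 (-0.60). At an unadjusted limma p under 0.05 the counts were 13 lower and 1 higher. Histone genes are near-identical copies of each other, so probe sets may share signal between them, and this was not tested. The chaperone gene Chaf1b, a subunit of the assembly factor that places histones on new DNA, was at 7.29, 7.20 and 7.03 at 360 min and at 4.88, 4.89 and 5.01 at 0 min. It rose by 2.25 ± 0.25 (adjusted p = 8.15e-06) with wide separation, and its partner Chaf1a rose by 1.67. Of 12 chaperone genes 9 rose and the other 3 were not called (median 0.44), with 10 higher and 0 lower at an unadjusted limma p under 0.05. Among the rises were Nasp (1.01), Asf1b (0.72) and Slbp (0.81), which binds the stem-loop of histone mRNA.

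Repair and chromatin genes tied to replication rose with these groups. Of 24 genes of homologous recombination, the Fanconi pathway and the checkpoint 14 rose and the other 10 were not called, with a median of 0.27, or 0.9 over the members with a mean of at least 5. They were led by the exonuclease Exo1 (1.67 ± 0.19) and Brca1 (1.52 ± 0.18), with the checkpoint kinase Chek1 (1.13) and the helicase Brip1 (0.98) behind. Uhrf1, which recruits the maintenance methyltransferase Dnmt1 to replicated DNA, was at 8.76, 8.61 and 8.80 at 360 min and at 7.19, 7.02 and 6.92 at 0 min (1.67 ± 0.24, adjusted p = 5.57e-05), without overlap. In the list of Polycomb and DNA methylation genes 10 of 22 rose and 3 fell (median 0.18, or 0.28 over members with a mean of at least 5). Hells (1.56), Dnmt1 (0.76), Ezh2 (0.75) and Cbx8 (0.60) were among the rises. The falls included Ezh1 (-0.34 ± 0.07), the other catalytic subunit of the Polycomb complex that holds Ezh2, and Ring1 (-0.32 ± 0.05).

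**Figure D3:**
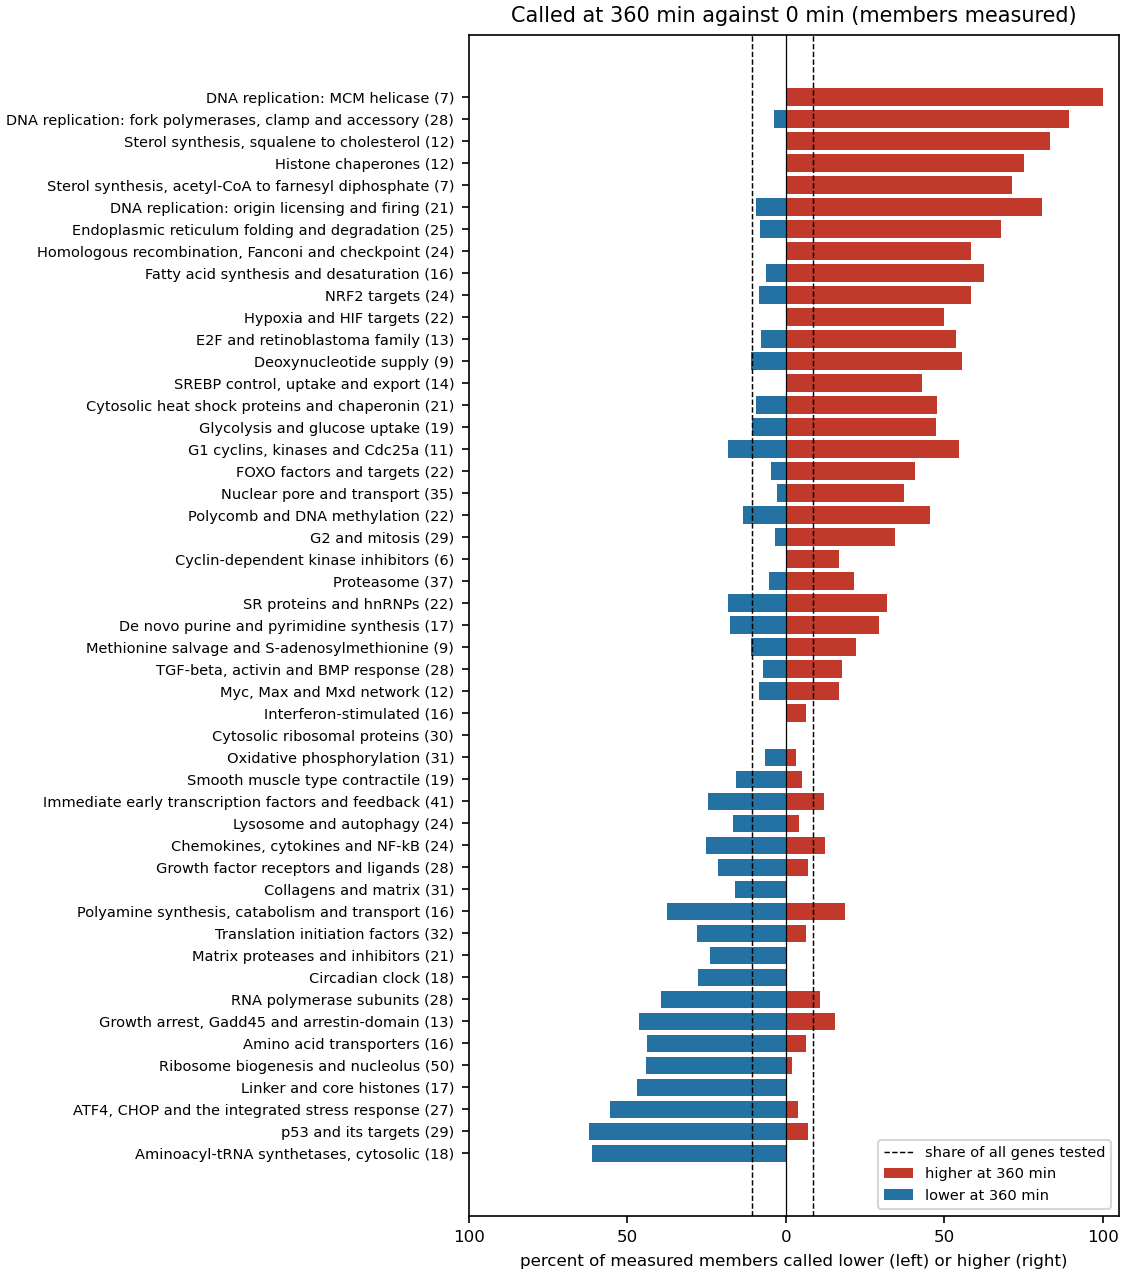
For each gene list (vertical axis, with the number of measured members in brackets) the bars give the percent of measured members called higher (red, to the right) or lower (blue, to the left) at 360 min against 0 min. Dashed lines mark the 8.47% of all tested genes called higher and the 10.5% called lower. The MCM, fork and sterol lists are near the top, and the aminoacyl-tRNA synthetase, p53 and ATF4 lists near the bottom. Ribosomal proteins have no bar.

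Genes of sterol synthesis rose too. Cells make cholesterol from acetyl-CoA through mevalonate, farnesyl diphosphate and squalene, and the transcription factor SREBP2, held in the endoplasmic reticulum by Insig proteins when sterols are plentiful, is known to drive most of the enzymes. Hmgcs1, which makes the precursor of mevalonate, was at 9.99, 10.18 and 10.17 at 360 min, against 8.09, 8.09 and 8.29 at 0 min. Idi1, which isomerises isopentenyl diphosphate, was at 9.16, 9.49 and 9.62 at 360 min, against 7.59, 7.61 and 7.57 at 0 min. All arrays at 360 min lay at least 1.5 above those at 0 min in both genes, with changes of 1.96 ± 0.19 for Hmgcs1 (adjusted p = 2.68e-06) and 1.83 ± 0.23 for Idi1 (adjusted p = 1.63e-05). Of 7 genes from acetyl-CoA to farnesyl diphosphate 5 rose (median 1.10), the others being Fdps (1.28), Mvd (1.10) and Mvk (0.89). Of 12 genes from squalene to cholesterol 10 rose (median 1.03). Neither list held a call in the other direction, nor a lower member at an unadjusted limma p under 0.05. Cyp51, the demethylase of lanosterol, rose by 1.59 ± 0.15 and Nsdhl by 1.38 ± 0.11 (adjusted p = 5.88e-07), followed by Sqle (1.30), Fdft1 (1.26), Msmo1 (1.14) and Lss (1.12).

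Among 14 genes of SREBP control, uptake and export 6 rose and the other 8 were not called (median 0.20). Insig1 was at 11.05, 11.09 and 11.12 at 360 min and at 9.01, 9.21 and 9.53 at 0 min, without overlap (1.83 ± 0.17, adjusted p = 1.42e-06). The sterol carrier Stard4 rose by 1.58, the LDL receptor ligase Mylip by 0.58, the SREBP-processing protease Mbtps1 by 0.51 and Tmem97 by 0.34. Srebf2, which encodes SREBP2, was at 8.72, 8.75 and 8.91 at 360 min and at 8.60, 8.56 and 8.66 at 0 min. Its arrays did not overlap, yet it missed the threshold (0.18 ± 0.07, adjusted p = 0.0722) and passed it under 2 of 15 alternatives. Of 16 genes of fatty acid synthesis and desaturation 10 rose and 1 fell (median 0.34): the desaturase Scd2 rose by 1.55 ± 0.16, fatty acid synthase Fasn by 1.13, malic enzyme Me1 by 0.75 and ATP citrate lyase Acly by 0.65, and the elongase Elovl1 fell (-0.33 ± 0.07). Of the 16 sterol synthesis genes with a promoter 1, Hmgcs1, held the sterol response element as spelled here, and all 16 held CCAAT, the box of NF-Y, which 41.7% of all genes held.

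Genes of polyamine metabolism and transport moved in both directions. Odc1, the target of DFMO and the gene of ornithine decarboxylase, was at 9.94, 9.80 and 9.60 at 360 min and at 9.78, 9.86 and 9.83 at 0 min. The groups overlapped, and the change of -0.04 ± 0.07 (adjusted p = 0.764) was not called. Of 16 measured genes of synthesis, catabolism and transport 3 rose and 6 fell (median -0.10, or -0.18 over members with a mean of at least 5). With a replicate block 3 rose and 5 fell, and the same counts held without the 2 arrays that stood apart. The 3 rises were Oaz2, Sat1 and Smox. Oaz2, an antizyme that sends ornithine decarboxylase to the proteasome, was at 5.89, 6.07 and 5.99 at 360 min and at 5.42, 5.23 and 5.09 at 0 min (0.74 ± 0.16, adjusted p = 0.0023). Sat1, which acetylates spermidine and spermine for export, was at 9.64, 9.60 and 9.64 at 360 min and at 9.22, 9.30 and 9.22 at 0 min (0.38 ± 0.07, adjusted p = 7.91e-04). In both genes every array at 360 min was above every array at 0 min. Smox, spermine oxidase, rose by 0.35 ± 0.10 (adjusted p = 0.0238), a call lost when replicate 3 of 360 min (adjusted p = 0.16) or replicate 1 of 0 min (adjusted p = 0.0991) was left out.

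The falls were in antizyme inhibitors, transport and, for synthesis, Srm alone. Azin1, which frees ornithine decarboxylase from antizyme, was at 10.50, 10.38 and 10.42 at 360 min and at 10.80, 10.93 and 10.88 at 0 min (-0.43 ± 0.08, adjusted p = 8.47e-04), and its relative Azin2 changed by -0.57 ± 0.09 (adjusted p = 2.1e-04). Slc7a1, the cationic amino acid transporter, was at 7.88, 7.92 and 8.10 at 360 min and at 8.99, 8.81 and 8.88 at 0 min (-0.92 ± 0.18, adjusted p = 9.85e-04). None of these 3 genes' groups overlapped. Atp13a3, known as a polyamine transporter, fell (-0.48 ± 0.08), as did Slc3a2 (-0.52 ± 0.06). Slc7a1 and Slc3a2 are also counted with the amino acid transporters. Spermidine synthase, Srm, lay just inside the threshold (-0.20 ± 0.07, adjusted p = 0.0482), and 9 of 15 alternatives ended its call, among them each array of the comparison left out in turn except replicate 3 of 360 min (adjusted p of 0.079 to 0.238). The genes of S-adenosylmethionine decarboxylase, spermine synthase and antizyme 1 were not analysed here. Of 4 genes around hypusine, the modification of eIF5A made from spermidine, Eif5a stayed at a change of 0.03 (adjusted p = 0.828) and Dhps, deoxyhypusine synthase, fell (-0.22 ± 0.07, adjusted p = 0.0217), a call lost without replicate 1 of 360 min (0.117) and without replicate 1 (0.0751) or replicate 2 (0.0735) of 0 min.

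**Figure D4:**
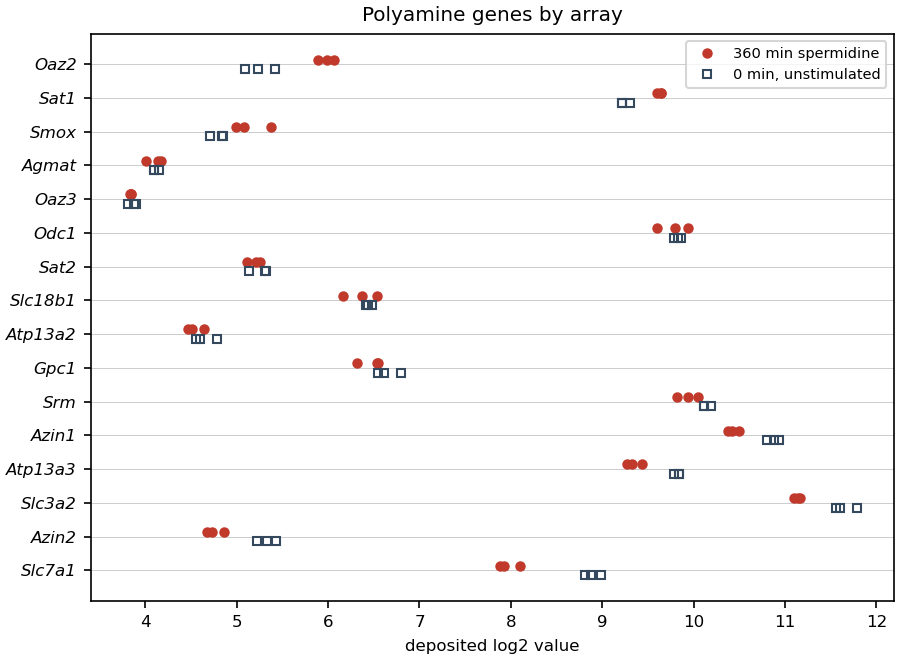
Deposited log2 values (horizontal axis) of the 16 measured polyamine genes. Filled red circles are the 3 arrays at 360 min, open squares the 3 at 0 min, and genes are sorted by their change. Oaz2, Sat1 and Smox at the top lie to the right at 360 min, Odc1 overlaps, and Slc7a1, Azin2, Slc3a2, Atp13a3 and Azin1 at the bottom lie to the left at 360 min.

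Genes of the p53 and ATF4 lists mostly fell. p53 is stabilised by stress and induces genes of arrest and death. Of 29 measured genes of this list 18 fell and 2 rose (median -0.62). Eda2r, a receptor of the tumour necrosis factor family, was at 7.32, 7.58 and 8.18 at 360 min and at 9.68, 9.48 and 9.38 at 0 min (-1.82 ± 0.21, adjusted p = 1.02e-05). Mdm2, which encodes the ubiquitin ligase of p53 and is its target, was at 9.85, 9.81 and 10.12 at 360 min and at 11.19, 10.98 and 10.97 at 0 min (-1.12 ± 0.16, adjusted p = 5.16e-05). Neither overlapped, although replicate 3 of 360 min was the highest of its group in both. Btg2 (-1.49 ± 0.34), Sesn2 (-1.37 ± 0.27) and the polymerase Polk (-1.32 ± 0.19) fell as well. Against the list, Sesn1 (1.71 ± 0.21, adjusted p = 1.59e-05) and Ccng2 (0.73 ± 0.19, adjusted p = 0.0083) rose. Both are also on the list of FOXO factors and targets, where 9 of 22 rose and 1 fell (median 0.08). Sesn1, at 8.62, 8.86 and 8.65 at 360 min and 7.00, 6.93 and 7.06 at 0 min, and Sesn2, at 6.10, 6.32 and 6.75 at 360 min and 8.28, 7.64 and 7.34 at 0 min, are sestrins, stress proteins that restrain mTORC1, and they moved in opposite directions.

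ATF4 is the transcription factor made when eIF2 is phosphorylated, and it induces amino acid transport, synthesis and tRNA charging. Atf4 was at 9.05, 8.93 and 9.16 at 360 min, against 10.41, 10.40 and 10.33 at 0 min. The groups lay more than 1 apart, and the change was -1.33 ± 0.17 (adjusted p = 2.03e-05). Of 27 genes of the integrated stress response 15 fell and 1 rose (median -0.37). Trib3 (-1.39 ± 0.22), Nupr1 (-1.10 ± 0.16), Mthfd2 (-1.09 ± 0.22) and Ddit3, which encodes CHOP (-0.81 ± 0.16), were among the falls, and the rise was Eif2ak3, the kinase PERK (0.45 ± 0.13, adjusted p = 0.0169). That call was lost on leaving out replicate 3 of 360 min (0.0807), and also on leaving out replicate 2 of 0 min (0.0915). Of 18 measured cytosolic aminoacyl-tRNA synthetases 11 fell and the other 7 were not called (median -0.27), led by Yars (-0.89 ± 0.11), Cars (-0.85 ± 0.11) and Mars1 (-0.61 ± 0.10). Of 16 amino acid transporters 7 fell and 1 rose (median -0.32), with Slc1a4 at -0.89 ± 0.17 and Slc7a5 at -0.62 ± 0.10. The amino acid response element (TGATGNAA) was found in 7 of 25 promoters of the stress response list and in 4 of 11 of the synthetases (6 and 2 with only the 250 bases upstream), against 3.62% of all genes (3.14%). Among all genes called lower the share was 3.56% (62 of 1744), close to that of all genes. Among those called higher it was 1.96% (27 of 1378).

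Genes of the translation machinery differed by group. None of 30 measured cytosolic ribosomal protein genes was called by limma (1 had an unadjusted p under 0.05), their median was 0.02, and their changes ran from -0.11 to 0.12. Of 50 genes of ribosome biogenesis 22 fell and 1 rose (median -0.15), with Rrp12 at -0.87 ± 0.11, Nob1 at -0.48 ± 0.07, Noc3l at -0.47 ± 0.08 and Bop1 at -0.46 ± 0.06. Rrp12 was at 8.01, 7.90 and 7.95 at 360 min and at 8.83, 8.81 and 8.81 at 0 min, with a clear gap. Of 32 initiation factor genes 9 fell and 2 rose (median -0.01): Eif4a2 (-0.70 ± 0.10) and the eIF2 beta subunit Eif2s2 (-0.52 ± 0.06) fell, and Eif5 (0.44 ± 0.07) and Eif2b4 (0.35 ± 0.07) rose. The list of RNA polymerase subunits and associated factors gave 11 falls and 3 rises among 28 (median -0.17), with Polr2g at -0.53 ± 0.07. These falls numbered 7 when the first or second 360 min array, or the second or the third 0 min array, was left out. Of the rises, Polr3g lost its call under 3 of 15 alternatives and Brf1 under 6. Myc, a known driver of ribosome genes, was at 9.10, 8.85 and 8.88 at 360 min and at 9.29, 9.42 and 9.14 at 0 min (-0.34 ± 0.14, adjusted p = 0.0925), and it passed the threshold under 4 of 15 alternatives.

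Of 24 NRF2 targets, which serve the defence against oxidants, 14 rose and 2 fell (median 0.31). Nqo1, a quinone reductase, was at 8.46, 8.32 and 8.44 at 360 min and at 6.46, 6.74 and 6.76 at 0 min (1.75 ± 0.26, adjusted p = 6.89e-05), without overlap. Cbr3 (1.47), Gclm, of glutathione synthesis (1.19), Gsr (0.82) and Gsta4 (0.79) rose too, while Nfe2l2, the gene of NRF2, fell (-0.45 ± 0.06, adjusted p = 5.63e-05). Of 25 endoplasmic reticulum folding genes 17 rose and 2 fell (median 0.34), with Sdf2l1 at 1.13 ± 0.19, Dnajb9 at 1.07 ± 0.27, Manf at 0.83 ± 0.13 and the sensor Atf6 at -0.69 ± 0.08. Of 21 heat shock and chaperonin genes 10 rose and 2 fell (median 0.11), Dnajb1 (0.89) and Hsph1 (0.82) among the rises. Of 22 hypoxia targets 11 rose and the other 11 were not called (median 0.28): the mitophagy receptor Bnip3, at 8.33, 8.24 and 8.44 at 360 min and 6.25, 6.80 and 6.47 at 0 min, by 1.84 ± 0.26, and the kinase Pdk1 by 0.99. In glycolysis 9 of 19 rose and 2 fell (median 0.16). Pfkl, a phosphofructokinase, was at 8.80, 8.76 and 8.91 at 360 min and at 7.02, 7.13 and 7.13 at 0 min (1.73 ± 0.19), while the hexokinase Hk2 fell (-0.54 ± 0.13).

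Immediate early and growth arrest genes moved in both directions. Of 41 immediate early and feedback genes 10 fell, 5 rose and 26 were not called (median -0.14). Among all genes with a mean between 5 and 7, 700 of 3295 fell and 543 rose. Between 7 and 9 it was 868 and 637 of 3518, and this list was not matched for level. The matricellular genes Ccn1 (-1.35 ± 0.22) and Ccn2 (-1.28 ± 0.24), Ier5 (-1.27 ± 0.14) and the phosphatase Dusp4 (-1.01 ± 0.19) fell, Jun changed by -0.46 ± 0.08 (adjusted p = 5.96e-04), and Nab1 rose by 0.77. The 5 rises became 3 when the first array of either time was left out. Fos (0.02, adjusted p = 0.959) and Egr1 (-0.29, adjusted p = 0.65) overlapped between 360 and 0 min. Of 13 growth arrest genes 6 fell and 2 rose, with Txnip at -1.16 ± 0.15, Gadd45a at -1.14 ± 0.18 and Gadd45g at -1.12 ± 0.18. The rises were the receptor Pdgfra (1.07 ± 0.17), which is also counted with the growth factor receptors, and Gas1 (0.52 ± 0.10).

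Several of the largest changes lay outside these lists. Btbd19, a gene with a BTB domain, was at 6.38, 6.25 and 6.62 at 360 min and at 8.22, 8.15 and 8.15 at 0 min (-1.76 ± 0.24, adjusted p = 3.4e-05). Stk40, a gene of the kinase family, was at 5.56, 5.36 and 5.56 at 360 min and at 7.06, 6.99 and 7.02 at 0 min (-1.53 ± 0.23, adjusted p = 8.11e-05). Sipa1, which encodes a GTPase-activating protein for Rap, was at 6.48, 6.31 and 6.70 at 360 min and at 4.67, 4.79 and 4.62 at 0 min (1.80 ± 0.21, adjusted p = 9.75e-06). In all 3 genes the groups lay more than 1 apart, down in Btbd19 and Stk40 and up in Sipa1. Rin1, a Ras effector, changed by -1.41 ± 0.14.

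Genes of secreted and surface proteins changed in both directions. Cxcl5, a chemokine that draws neutrophils, was at 8.59, 8.65 and 8.14 at 360 min and at 6.22, 6.53 and 6.54 at 0 min (2.04 ± 0.25, adjusted p = 1.69e-05). Cd80, a costimulatory ligand of T cells, was at 4.69, 4.85 and 5.14 at 360 min and at 7.27, 7.04 and 6.75 at 0 min (-2.13 ± 0.25, adjusted p = 1.02e-05). Both were separated by more than 1.5 on the log2 scale, and the 10 macrophage markers had a median change of -0.02. In their list of 24 chemokine, cytokine and NF-kB genes 3 rose and 6 fell, Ptgs2 (-0.82 ± 0.15) and Vcam1 (-0.78 ± 0.13) among the falls. In a list of 28 TGF-beta, activin and BMP genes 5 rose, Id3 (0.79) among them, and 2 fell. The 2 were Inhba, the activin A subunit (-1.36 ± 0.28), and its antagonist Fst, follistatin (-1.41 ± 0.29). Nr1d1, the clock repressor REV-ERB alpha, was at 7.16, 6.97 and 6.96 at 360 min and at 8.52, 8.63 and 8.23 at 0 min (-1.43 ± 0.27, adjusted p = 6.86e-04), and 5 of 18 clock genes fell and the other 13 were not called. That count was 3 with quantile normalization, 2 when the first or the second 360 min array was left out, and 3 when the third 360 min array or the first or the third 0 min array was left out. Of 31 collagen and matrix genes 5 fell and the other 26 were not called, with a median of -0.02. The count was 3 when the first or second 360 min array or the second or the third 0 min array was left out, and 8 with only the 6 arrays in the fit.

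The arrays of 240 and 480 min bracket this time. Against 240 min 848 genes were higher and 359 lower at 360 min, which is 4.25% and 1.8% of the genes tested (6.05% together). Replicate 3 of 240 min stood apart, and without it 220 and 60 were called. Without it and replicate 3 of 120 min the counts were 455 and 148. Between 480 min and 360 min 58 genes were higher and 64 lower at 480 min, 0.291% and 0.321% (0.612% together), and without the 2 arrays that stood apart 110 and 127. With quantile normalization the split was 719 and 568 for 360 against 240 min and 71 and 40 for 480 against 360 min, and with array medians subtracted 53 and 83 for 480 against 360 min. Leaving out replicate 2 or replicate 3 of 360 min gave 712 and 489 calls in all against 240 min, and leaving out single arrays of 360 or 480 min gave 42 to 90 between those times. The comparisons share the 360 min arrays, and those with 240 min and with 0 min are not independent either.

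The largest called rises from 240 min to 360 min were those of Cdc6 (1.76 ± 0.30), Chaf1b (1.50), Brca1 (1.42), Idi1 (1.37) and Dtl (1.29), and all 5 were called without the 2 arrays that stood apart too, at 1.41, 1.23, 1.24, 1.09 and 0.99 in the same order. The largest called falls among genes with a proper name were H1f2 (-1.35 ± 0.27), Eda2r (-1.20), Cd80, which fell by 1.00, Tomm5 (-0.81) and Rin1 (-0.79), and without those arrays Tomm5 was not called (-0.53, adjusted p = 0.0761). In this interval 14 of 21 licensing genes, 6 of 7 MCM genes and 24 of 28 fork genes rose, or 13, 6 and 20 without the arrays that stood apart. Of the G2 and mitosis list 14 of 29 rose, or 10 without them. Sterol genes rose as well, 5 of 7 in the first stretch and 10 of 12 in the second (5 and 9 without those arrays). Atf4 had no called change in this interval (-0.28, adjusted p = 0.41, and -0.03 without those arrays), and 6 of 29 p53 genes fell and 1 rose (4 and 1).

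From 360 min to 480 min 0 licensing genes and 0 MCM genes were called by limma (4 higher and 3 lower, and 1 higher and 0 lower, at an unadjusted p under 0.05), and 1 fork gene rose. Without the 2 arrays that stood apart these counts were 2 higher and 1 lower, 2 higher, and 1 higher. Cdc6 was at 6.37, 6.57 and 6.56 at 480 min, below all 3 arrays at 360 min (-0.66 ± 0.30, adjusted p = 0.454), and it was called without those arrays (adjusted p = 0.0146). In the same interval 4 of 7 genes of the first stretch of sterol synthesis, 10 of 12 of the second and 9 of 16 fatty acid genes rose. Without those arrays 6, 11 and 13 rose. Mvd (1.21 ± 0.16), Nsdhl (1.20 ± 0.11), Lss (1.09 ± 0.12), Pmvk (0.96) and Elovl6 (0.89) had the 5 largest called rises, and Idi1, at 0.96, was not called. Pmvk, phosphomevalonate kinase, had no called change at 360 min against 0 min (0.18 ± 0.13, adjusted p = 0.44). The largest called falls among genes with a proper name were those of haem oxygenase Hmox1 (-0.71), Slc7a5 (-0.56), Zfr (-0.52), Ptchd4 (-0.51) and Zadh2 (-0.49). The histone H1f5, lower at 360 min than at 0 min, rose by 0.85 ± 0.11 from 360 min to 480 min (adjusted p = 0.0011). Whether the change of 1 list from 360 to 480 min differs from that of another was not tested.

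**Figure D5:**
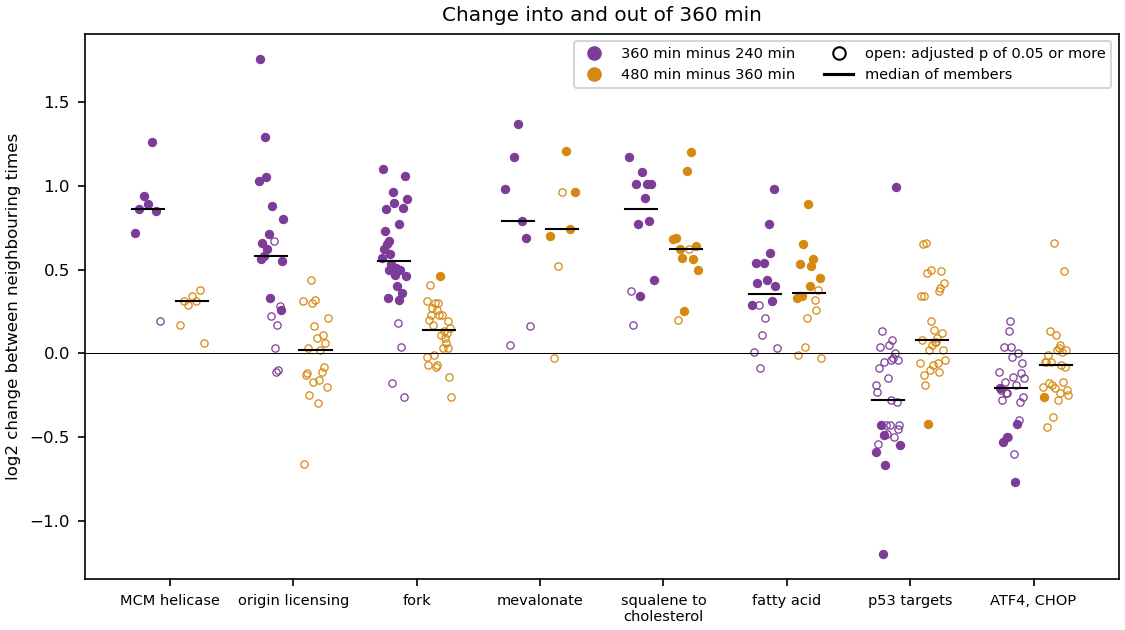
Log2 change of each member of 8 lists (horizontal axis) from 240 min to 360 min (360 minus 240 min, purple) and from 360 min to 480 min (480 minus 360 min, orange), all 24 arrays in the fit. Filled points passed the threshold, open points did not, and black lines are medians. The MCM medians are 0.86 and 0.31, the licensing medians 0.58 and 0.02, and the medians of squalene to cholesterol 0.86 and 0.62, with 10 filled points in each interval.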

How the data were processed

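The 24 arrays (8 times, 3 replicates each) were processed with Partek and RMA, per the submitters' processing notes (versions: not given in the sources used here). No further normalization was applied to the deposited log2 values. Their log2 scale was inferred from RMA and from the values, whose medians per array lay between 4.40 and 4.45. Replicate means of each probe set were equal (median gap 5e-06, largest 8.75e-05). The platform annotation gave exactly 1 symbol for 21789 of 35399 probe sets, more than 1 for 1621 and no symbol for 11989, and the probe set with the highest mean stood for each of 19938 genes (999 had several). Of these symbols 19 were not in the RefSeq table and 0 were updated.

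limma 3.58.1 in R 4.3.3 fitted 1 mean per time to all 24 arrays, with 16 residual and 3.48 prior degrees of freedom, and gave two-sided moderated tests with Benjamini-Hochberg adjusted p over all genes of a comparison. On simulated data the fit was tested before use. Files were read with pandas 2.3.3 and with the R package data.table (version 1.17.8) and figures drawn with matplotlib 3.10.9 in Python 3.11.15.

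Named genes are the 15 largest non-overlapping changes in each direction, up to 5 called genes a list by size of change with up to 3 that moved against it, fixed polyamine and regulator genes, and the 5 largest changes each way at the neighbouring times. The members, lists and motifs were chosen with earlier results of these data known. Alternatives covered normalization, low values, replicate block, arrays fitted, variance prior, probe sets and single arrays left out. Scanner files were not used here, so background correction and scan date were not varied.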

Additional observations from a re-analysis of the deposited data

Results flagged for a closer look

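Probe sets without a single gene symbol enter no comparison in the text above, yet 759 of them were called at 360 min against 0 min by the same limma fit. Of the 1621 with several symbols 68 were higher and 112 lower at 360 min, and of the 11989 with none 279 were higher and 300 lower. They are given as counts only.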

How the results depend on the processing

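The counts at 360 min against 0 min stayed within 1.5 times of 1689 higher and 2103 lower under all 15 alternatives, from 3026 calls in all with 1 array left out to 4108 without replicate 3 of 120 min and of 240 min, an alternative chosen after seeing the data. Of 281 named genes 271 were called and 218 of them kept the call under every one of the 15; 53 lost it under at least 1, 3 gained it and 0 reversed. At 360 min against 240 min 1207 genes were called. The count was 776 with a replicate block, 177 with only those 6 arrays in the fit, 603 without the 2 arrays that stood apart, 412 without them and with the block, and 280 to 1422 with 1 array left out. Quantile normalization moved the share of higher calls to 55.9%, against 70.3% as deposited. At 480 min against 360 min 122 genes were called, and 65 with a replicate block, 237 without the 2 arrays, 134 without them and with the block, and 42 to 90 with 1 array left out. The share of higher calls there was 64% with quantile normalization and 39% with array medians subtracted, against 47.5% as deposited. Same-numbered arrays of 360 and 0 min deviated from their group means with correlations of -0.38, -0.19 and -0.16. Equal replicate means force the deviations of each number to cancel over the 8 times. These correlations therefore cannot show whether the numbers mark pairs, and the main fit did not use them as pairs. The replicate block left 1452 genes higher and 1815 lower, with 5 rises on the proteasome list and 3 falls on the clock list. With genes of a mean under 5 left out, the medians of several lists moved away from 0, for example to 0.9 for homologous recombination and to -0.56 for histones. With only the 250 bases upstream, 6.53% of the genes called higher and 2.88% of all held an E2F motif. The cause of these shifts was not tested. Genes with a mean under 5 were seldom called, and at that level a missing call says little about a change.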

Other observations

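Among genes of nuclear transport more were called higher than lower at 360 min. Of 35 measured genes of the nuclear pore and its carriers 13 rose and 1, the importin Kpna4 (-0.26 ± 0.06), fell (median 0.12). Over all genes 8.47% were higher and 10.5% lower, a low background for genes with means above 5. The list was not matched for level. Xpo1, the main export receptor, was at 10.95, 10.96 and 10.97 at 360 min and at 10.07, 10.20 and 10.31 at 0 min (0.77 ± 0.09, adjusted p = 1.02e-05). Its arrays at 360 min lay within 0.02 of each other and above all those at 0 min. The scaffold nucleoporin Nup107 rose by 0.64 ± 0.08 and the importin Kpna2 by 0.44 ± 0.07. Of 37 proteasome genes 8 rose and 2 fell (median 0.05), and the rises were 3 to 5 when the first 360 min array or any 1 of the 0 min arrays was left out. They included the activator Psme4 (0.52 ± 0.09) and the base subunit Psmd1 (0.49 ± 0.06), while the assembly chaperone Psmg1 fell (-0.47 ± 0.07). Nucleotide synthesis was split: of 17 purine and pyrimidine genes 5 rose, such as Gmps, GMP synthetase (0.48 ± 0.07), and 3 fell, such as Dhodh, dihydroorotate dehydrogenase (-0.52 ± 0.10).

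Most growth factor and matrix protease genes were not called. Of 28 growth factors and receptors 6 fell and 2 rose (median -0.01), with the ligands Nrg1 at -0.69 ± 0.10, Hbegf at -0.64 ± 0.14 and Pdgfa at -0.50 ± 0.08, while Pdgfra, which encodes a receptor of Pdgfa, rose. Hbegf was at 4.68, 4.46 and 4.56 at 360 min and at 5.08, 5.37 and 5.17 at 0 min, low on all arrays and without overlap. Of 21 matrix proteases and inhibitors 5 fell (3 with the first 360 min array, or the first or second 0 min array, left out), Plau, the urokinase (-0.73 ± 0.15), among them. The autophagy receptor Sqstm1, also a target of NRF2, was at 11.62, 11.58 and 11.58 at 360 min and at 12.11, 12.17 and 12.17 at 0 min (-0.56 ± 0.05, adjusted p = 1.42e-06), while 14 of 24 genes on the NRF2 list rose. Mxi1, an antagonist of Myc, rose by 0.70 ± 0.11, and Mtrr, methionine synthase reductase, changed by -0.71 ± 0.12 (adjusted p = 1.86e-04).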
